A study of Mus musculus with 7 samples.

Results

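The genes described here encode the proteins of the cytosolic ribosome. They were chosen by symbol alone: every row named Rps or Rpl with a number and an optional closing letter (a, x, y or l), together with Rplp0, Rplp1, Rplp2 and Rpsa, and none named as a pseudogene copy. This gave 81 of the 40743 genes listed, 32 of the small (40S) and 49 of the large (60S) subunit. The rule leaves out Rack1, Fau and a few others, which are given at the end as a separate list. RNA-seq of retinal microglia (rMG) was compared between 3 libraries labelled Irf8 KO from unlasered mice and 4 libraries labelled Irf8 KO from mice 7 days after laser-induced choroidal neovascularisation (CNV). The genotype given for all mice is Irf8-/- Cx3cr1GFP/+ on C57BL/6J without the Crb1 mutation, that is, a germline knockout of Irf8 with GFP in place of 1 Cx3cr1 allele, shared by both groups. The unlasered mice were adult, and the age of the lasered mice is not given in the sources used here. Each library held cells pooled from 3 to 4 mice, 10000 on average, sorted as CD45low CD11b+ Ly6C- Ly6G- GFP-positive cells. In lasered mice the sort used the central 70% of the retina and not the periphery, so the effect of laser and that of retinal position cannot be told apart.

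Ribosomal proteins coat and hold together the ribosomal RNA of both subunits, and cells need them in roughly equal numbers because each ribosome holds a single copy of most of them. Their messages belong to the 5′ terminal oligopyrimidine (5′ TOP) class, which starts with a C followed by a run of pyrimidines and is translated more or less actively under control of the kinase complex mTORC1 and the RNA-binding protein Larp1. Microglia are the resident macrophages of the retina, and macrophages enlarge their protein synthesis when they grow or become active.

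The libraries held 20427558 to 36022954 reads without laser and 37133297 to 45919042 reads with laser, so the depths did not overlap. A level of 3 reads, taken as the floor, was 0.0653 to 0.147 CPM (reads brought to an equal total across libraries). Irf8 itself was listed at 463 to 582 CPM in all 7 libraries, jointly with the overlapping Gm20388, so its reads do not show the knockout that the labels name, and the libraries are called here by their labels. The 14 microglial markers summed to between 35301 and 43060 CPM, and all 14 were read in each library. Markers of other cells differed between libraries. The 15 rod photoreceptor markers gave a summed level of 2547, 20844 and 6161 CPM in the 3 unlasered libraries, in order, against 567 to 1344 CPM after laser. Of the 15, 13 passed the test (limma) as lower, beside 3.07% of all genes tested, and 14 were lower without overlap, beside 10.7%. The 5 Mueller glia markers summed to 942, 645 and 785 CPM without laser and 443, 587, 275 and 338 CPM with it, with no overlap, and 1 of the 4 tested passed as lower. The 6 cone markers summed to 256, 876 and 194 CPM against 233 to 251 CPM, and 0 of the 6 passed. Nearly all of the sum after laser came from Pde6h, at 246, 302 and 185 CPM without and 232 to 245 CPM with laser. The median difference of the 6 was -1.98 on the log2 scale, with 0 above 0. Lower without overlap were 3 of them, beside 10.7% of all genes tested. For the 5 monocyte markers the sums were 63.7, 16.8 and 61.2 CPM without laser, and 112, 176, 30.7 and 11.5 CPM with it. The 5 erythrocyte markers were near 0 except in lasered library 1, where they summed to 84.8 CPM. In bulk samples, a different number of cells and a different amount of RNA per cell cannot be told apart. Nothing in the sources says whether the libraries of a group were separate sorts on separate days, so p-values measure the spread between these libraries.

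To ask whether the ribosomal protein messages of rMG differed after laser injury, the levels of all 81 genes were first added up within each library. The sum was 3893, 4170 and 3184 CPM in unlasered libraries 1, 2 and 3. It was 6747, 6889, 5872 and 5884 CPM in lasered libraries 1 to 4. All 4 lasered libraries lay above all 3 unlasered libraries. The means were 3749 ± 508 CPM (SD, n = 3) and 6348 ± 546 CPM (SD, n = 4), or 0.375% and 0.635% of the reads, a ratio of 1.69. The 40S genes summed to 1648 ± 224 CPM without and 2842 ± 275 CPM with laser, a ratio of 1.72, and the 60S genes to 2101 ± 285 and 3506 ± 274 CPM, a ratio of 1.67.

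**Figure D1:**
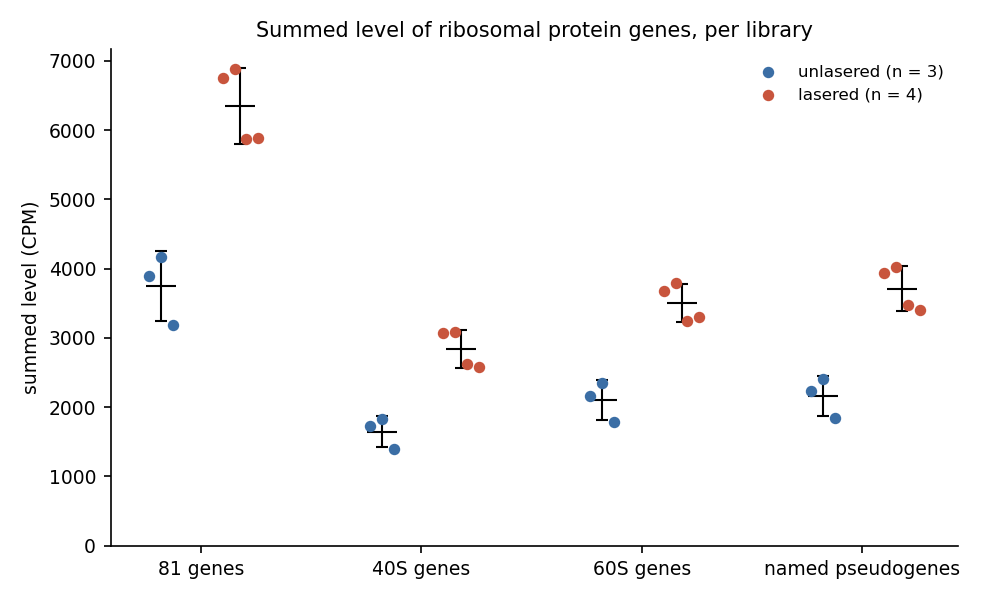
Summed level in CPM (vertical axis, from 0) of the 81 ribosomal protein genes, of the 40S and 60S genes and of 255 pseudogenes named after them; each point is a library, the bar a mean and the whisker an SD. In each of the 4 sums all lasered libraries lie above all unlasered libraries, with means of 3749 and 6348 CPM for the 81 genes.

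Of the 81 genes, 79 passed the filter of at least 1 CPM in at least 3 libraries, and Rpl10l and Rpl3l did not. With limma on log2(CPM + 1), 43 of the 79 were higher after laser at an adjusted p under 0.05 and 0 were lower, beside 3.86% higher and 3.07% lower (6.93% in either direction) among all 17496 genes tested. At an unadjusted p under 0.05 the counts were 66 higher and 0 lower, where 11.0% of all genes were higher and 11.6% lower. The edgeR quasi-likelihood test on the recovered reads called 42 higher and 0 lower (3.78% of all genes higher), and DESeq2 called 55 higher and 0 lower (6.73% higher). In 61 of the 79 genes every lasered library lay above every unlasered library, as in 10.4% of all genes, and in 0 every lasered library lay below. The difference was above 0 in 78 of 79 genes and in 48.4% of all genes. Its median was 0.70 over the 79 genes and -0.01 over all genes, on the log2 scale. The 43 called genes had differences from 0.51 (Rpl4) upward, with 1.22 for Rpsa, and the 36 others from -0.24 (Rps4l) to 0.70 (Rps13). Among the 40S genes 19 of 32 were higher (median difference 0.80), and among the 60S genes 24 of 47 (median 0.66). The count of 43 fell to 20 without lasered library 1 and to 17 without lasered library 2, and it was 24 with no filter on low values; the median stayed between 0.60 and 0.78 in the fits with 1 library left out. With the rod genes taken out of the totals 42 genes were called, and with all libraries thinned to the depth of the smallest 41 were called.

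**Figure D2:**
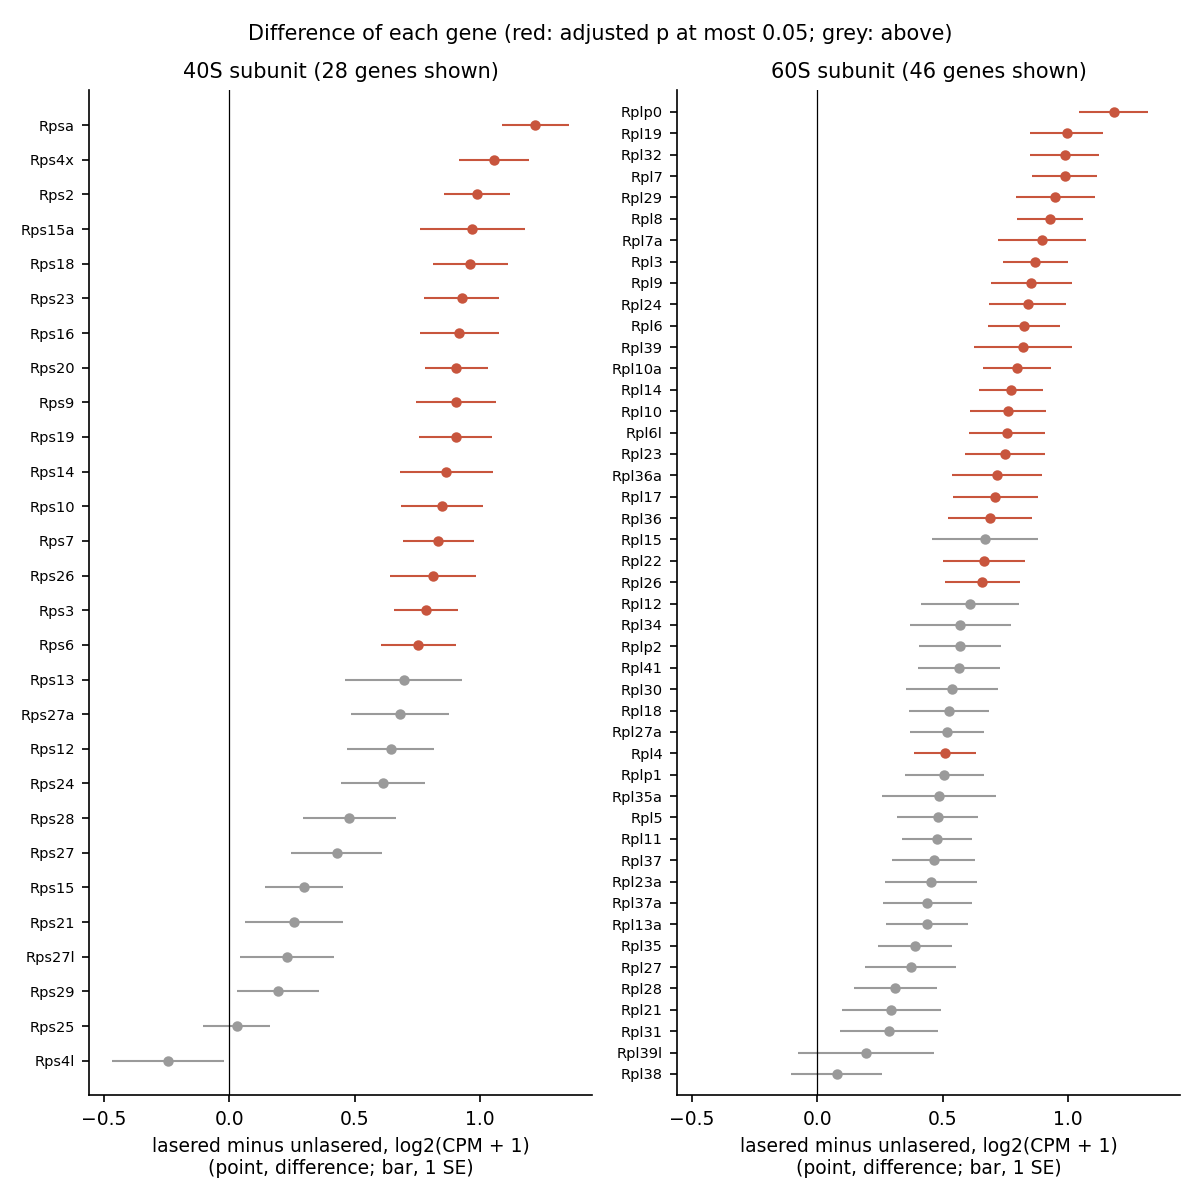
Difference between lasered and unlasered libraries in log2(CPM + 1) (horizontal axis) for 74 of the 79 tested genes, by subunit, with bars of 1 SE; red points have an adjusted p of at most 0.05. All points but Rps4l lie right of 0, from 0.03 for Rps25 to 1.22 for Rpsa.

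Rpsa and Rplp0 were among the members with the largest differences after laser. Rpsa (chromosome 9, 120127689 to 120132369, plus strand) encodes a 40S protein also known as the laminin receptor. It was read at 31.1, 32.1 and 28.1 CPM without laser. With laser it was read at 72.4, 82.4, 66.7 and 68.0 CPM. No lasered library came close to the unlasered ones, and the difference was 1.22 (SE 0.13, adjusted p = 0.00403, limma). Its row also counts reads listed jointly with the snoRNA gene Gm26448.

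Rplp0 (chromosome 5, 115559467 to 115563727, plus strand) encodes the base of the 60S stalk, the lateral arm that draws elongation factors to the ribosome. Its level was 148, 159 and 120 CPM without laser and 344, 354, 286 and 307 CPM with laser. The groups were again apart, with a difference of 1.18 (SE 0.14, adjusted p = 0.00563, limma). The acidic partners that sit on this base in the stalk, Rplp1 and Rplp2, did not pass the test. Rplp1 was at 48.6, 50.3 and 39.5 CPM without and 67.2, 78.7, 56.0 and 62.7 CPM with laser (difference 0.51, SE 0.16, adjusted p = 0.0934). Rplp2 was at 47.3, 55.0 and 41.2 CPM without and 81.5, 78.6, 59.1 and 66.9 CPM with laser (0.57, SE 0.16, adjusted p = 0.0733). In both, all lasered libraries lay above all unlasered ones, and DESeq2 called both, with adjusted p of 0.0324 and 0.0160. The ratio of Rplp0 to the summed Rplp1 and Rplp2 within a library was 1.51 ± 0.030 (SD, n = 3) without and 2.35 ± 0.098 (SD, n = 4) with laser. Its groups did not overlap, with 1.48 to 1.54 against 2.25 to 2.48. Such ratios were taken from CPM not divided by length and were compared only between groups.

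Rps4x (X chromosome, 102184941 to 102189394, minus strand), the X-linked 40S protein, was at 54.8, 58.2 and 44.1 CPM without laser and 112, 113, 115 and 97.1 CPM with laser. Its difference was 1.05 (SE 0.14, adjusted p = 0.00742, limma). All 4 members on the X chromosome, Rps4x, Rpl10, Rpl36a and Rpl39, passed the test, with differences between 0.72 and 1.05; that of Rpl36a (adjusted p = 0.0456) was lost without any single library, with adjusted p between 0.0679 and 0.136. Rps2, which lines the path of the mRNA into the 40S subunit, was at 28.1 to 34.98 CPM without and 60.8 to 66.5 CPM with laser (0.99, SE 0.13, adjusted p = 0.00742). The 60S genes Rpl19, Rpl32 and Rpl7 had differences of the same size. Rpl19 was at 27.4 to 36.8 against 57.3 to 68.5 CPM (0.99, adjusted p = 0.00936), Rpl32 at 95.2 to 122 against 192 to 242 CPM (0.99, adjusted p = 0.00819) and Rpl7 at 74.8 to 99.3 against 163 to 185 CPM (0.99, adjusted p = 0.00742). In each of these genes the groups were apart. Rpsa, Rplp0, Rps4x, Rps2, Rpl19, Rpl32 and Rpl7 kept their call in every limma fit with a library left out.

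**Figure D3:**
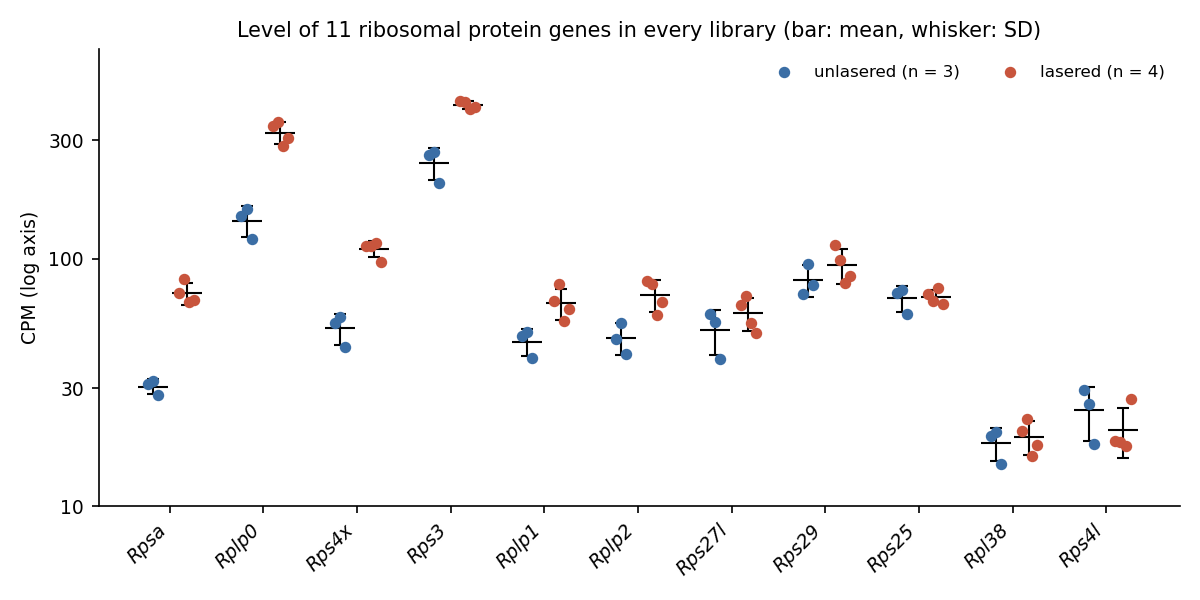
Level in CPM (log axis) of 11 ribosomal protein genes in each library, with the mean and SD of each group. Rpsa, Rplp0, Rps4x and Rps3 show 2 separate groups, whereas the points of Rps27l, Rps29, Rps25, Rpl38 and Rps4l overlap.

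Among the 40S proteins with known roles outside or beyond the core, Rps3, which sits at the mRNA entry and also takes part in DNA repair, was at 261, 268 and 202 CPM without and 431, 430, 403 and 408 CPM with laser (0.78, SE 0.13, adjusted p = 0.0123, limma). Rps6, the 40S protein that S6 kinase phosphorylates downstream of mTORC1, was at 66.1, 64.9 and 50.7 CPM without and 104, 118, 98.4 and 90.03 CPM with laser (0.75, SE 0.15, adjusted p = 0.0234). Rps19, the gene most often mutated in Diamond-Blackfan anaemia, was at 42.5, 46.4 and 39.0 CPM without and 87.7, 92.9, 72.4 and 70.7 CPM with laser (0.90, SE 0.15, adjusted p = 0.0128). All 3 were higher with no overlap between groups. Rps14, lost in the 5q- syndrome of the marrow, was at 91.6 to 125 CPM without and 168 to 251 CPM with laser (0.87, SE 0.19, adjusted p = 0.0300). Its level parted the lasered libraries, with 236 and 251 CPM in libraries 1 and 2 and 168 and 174 CPM in libraries 3 and 4. Rps15a also rose, by 0.97 (SE 0.21, adjusted p = 0.0302). Rps6 lost its call without lasered library 1, 2 or 3 (adjusted p = 0.0708, 0.0723 and 0.0603). Rps14 lost it without unlasered library 1 or 3 (0.0551 and 0.0542) or lasered library 1 or 2 (0.0827 and 0.0808). Rps15a lost it without unlasered library 1 or 3 (0.0634 and 0.0575) or lasered library 1, 2 or 3 (0.0818, 0.0853 and 0.0803).

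Rps27a, made as a fusion with ubiquitin, was at 27.0, 24.9 and 17.4 CPM without and 39.1, 41.3, 40.1 and 29.1 CPM with laser, and it missed the threshold (0.68, SE 0.20, adjusted p = 0.0734, limma). It was called by DESeq2 (adjusted p = 0.0156) and when the reads of its named pseudogenes were added (adjusted p = 0.0432). Rps27 and its paralogue Rps27l, a target of p53, did not pass. Rps27 was at 27.2 to 36.4 CPM without and 34.2 to 48.5 CPM with laser (0.43, adjusted p = 0.200), and Rps27l at 39.3 to 59.7 and 50.3 to 70.7 CPM (0.23, adjusted p = 0.515). Both pairs of ranges overlapped. The ratio of Rps27l to Rps27 within a library was 1.69 ± 0.36 (SD, n = 3) without and 1.45 ± 0.062 (SD, n = 4) with laser, with overlap.

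Of the 60S proteins, Rpl3, which reaches to the peptidyl transferase centre, was at 57.0, 56.4 and 52.2 CPM without and 102, 118, 94.8 and 93.1 CPM with laser (0.87, SE 0.13, adjusted p = 0.00970, limma). Rpl10, a late-joining protein needed before the subunits can meet, was at 31.6 to 46.0 CPM without and 62.3 to 69.7 CPM with laser (0.76, SE 0.15, adjusted p = 0.0248). Rpl22, which has a paralogue that can take its place, was at 31.0 to 44.1 CPM without and 49.2 to 62.5 CPM with laser (0.66, SE 0.16, adjusted p = 0.0452). These 3 were higher with no overlap, but the call of Rpl22 was lost without any library other than unlasered library 2, with adjusted p between 0.0573 and 0.129. Rpl10 lost it without unlasered library 2 (adjusted p = 0.0501) or lasered library 1, 2 or 3 (0.0714, 0.0761 and 0.0697).

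Rpl5 and Rpl11, which together with 5S RNA can bind the p53 regulator Mdm2, did not pass the test. Rpl5 was at 36.3 to 51.8 CPM without and 57.9 to 72.3 CPM with laser (0.48, SE 0.16, adjusted p = 0.114). Rpl11 was at 20.1 to 25.1 CPM without and 30.4 to 33.8 CPM with laser (0.48, SE 0.14, adjusted p = 0.0782). In both genes the groups did not overlap, and DESeq2 called Rpl11 (adjusted p = 0.0183). Rpl13a, known from a complex that silences inflammatory messages, was at 63.2 to 91.9 CPM without and 91.4 to 123 CPM with laser (0.44, SE 0.16, adjusted p = 0.147), with overlap, and its row counts reads listed jointly with 5 other genes, 3 of which are Snord33, Snord34 and Snord35a. Rpl41, a very short protein, was at 58.8 to 80.0 and 86.7 to 115 CPM (0.56, adjusted p = 0.0740), Rpl37a at 74.1 to 93.8 and 95.1 to 138 CPM (0.44, adjusted p = 0.179), and Rpl12, at the foot of the stalk, at 6.83 to 10.04 and 10.4 to 13.8 CPM (0.61, adjusted p = 0.1003). These 3 were above the unlasered range in all lasered libraries without passing the limma test. DESeq2 called Rpl41 (adjusted p = 0.01875) and Rpl12 (adjusted p = 0.0486), and not Rpl37a.

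At the other end of the family stood Rps4l, Rps25, Rpl38, Rps29 and Rpl39l, none of which passed the test. Rps25, a 40S protein used for initiation at internal ribosome entry sites, was at 72.7, 74.9 and 59.5 CPM without and 71.9, 67.4, 75.9 and 65.8 CPM with laser. The 2 groups covered the same range (difference 0.03, SE 0.13, adjusted p = 0.922, limma), and its sign turned without unlasered library 3 (-0.072) or lasered library 3 (-0.0076). Rpl38, a 60S protein known from skeletal defects of mutant mice, was at 19.2, 20.0 and 14.9 CPM without and 20.2, 22.6, 15.9 and 17.6 CPM with laser (0.08, SE 0.18, adjusted p = 0.843). Its sign turned without unlasered library 3 (-0.049) or lasered library 2 (-0.0052). Rps29, a zinc-binding 40S protein, was at 72.3, 95.3 and 78.4 CPM without and 113, 98.6, 79.7 and 85.1 CPM with laser (0.19, SE 0.16, adjusted p = 0.53). Its highest unlasered value exceeded those of lasered libraries 3 and 4. A p that misses the threshold does not show that these genes kept their level.

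Some members are paralogues of others and were read beside their main forms. Rps4l (chromosome 6, 148354656 to 148355598), a copy of the Rps4 gene annotated as a transcribed processed pseudogene, was at 29.5, 25.8 and 17.8 CPM without and 18.4, 18.2, 17.5 and 27.2 CPM with laser (-0.24, SE 0.22, adjusted p = 0.569, limma). It was the only tested member with a difference below 0. The ratio of Rps4x to Rps4l within a library was 1.86, 2.26 and 2.47 without and 6.10, 6.19, 6.599 and 3.56 with laser, and the groups were apart. Rpl39, which lines the exit tunnel of the 60S subunit, was at 28.6, 32.1 and 21.7 CPM without and 60.3, 53.2, 44.6 and 39.0 CPM with laser (0.82, SE 0.20, adjusted p = 0.0410); the call was lost on leaving out any library but lasered library 4, with adjusted p between 0.0521 and 0.114. Its testis-rich paralogue Rpl39l was between 1.11 and 3.38 CPM in all libraries (0.20, SE 0.27, adjusted p = 0.727), and its difference was -0.036 without lasered library 3. The muscle paralogue Rpl3l was between 0.135 and 1.42 CPM and was not tested. Rpl10l, a paralogue of Rpl10 active in the testis, was at 0 in 6 libraries and at 0.0555 CPM in unlasered library 3, under the floor of 3 reads there (0.0833 CPM). Rpl6l, a second processed pseudogene that the rule takes in, rose with its parent, by 0.76 (adjusted p = 0.0243) beside 0.82 (adjusted p = 0.0160) for Rpl6. Rpl6l lost its call without unlasered library 2 (adjusted p = 0.0512) or lasered library 1, 2 or 3 (0.0714, 0.0785 and 0.0550), and Rpl6 without lasered library 2 (0.0574). Rpl6l shares 76.4% of its 50-base words with other genes.

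Because most members differed in the same direction, each gene was also expressed as a share of the summed level of the 81 genes in its library, a measure that does not depend on library totals. This share was higher in all lasered than in all unlasered libraries for 14 genes, lower for 26 and overlapping for 41. The untested Rpl3l and Rpl10l are among the 41. Such a share is defined within the family only, so these counts have no value over all genes beside them. They were not tested. Shares add up to a fixed total, so some fall where others rise. Rplp0 took 3.80%, 3.81% and 3.76% of the sum in unlasered libraries 1 to 3 and 5.10%, 5.15%, 4.86% and 5.21% in lasered libraries 1 to 4. Its shares in the 2 groups were apart, and within a group they lay close together.

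The share of Rps25 was 1.87%, 1.80% and 1.87% without and 1.07%, 0.978%, 1.29% and 1.12% with laser. The share of Rpl38 was 0.494%, 0.479% and 0.466% without and 0.299%, 0.328%, 0.271% and 0.299% with laser, and that of Rps29 had means of 2.20% and 1.48%. These genes thus made up less of the family's messages in every lasered library. Rpl4, which rose by 0.51 (SE 0.12, adjusted p = 0.0426), went from a mean share of 6.02% to 5.06%, while Rps3 held 6.50% and 6.61% with overlap. The call of Rpl4 was kept only without unlasered library 3 (adjusted p between 0.0560 and 0.117 without another library).

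**Figure D4:**
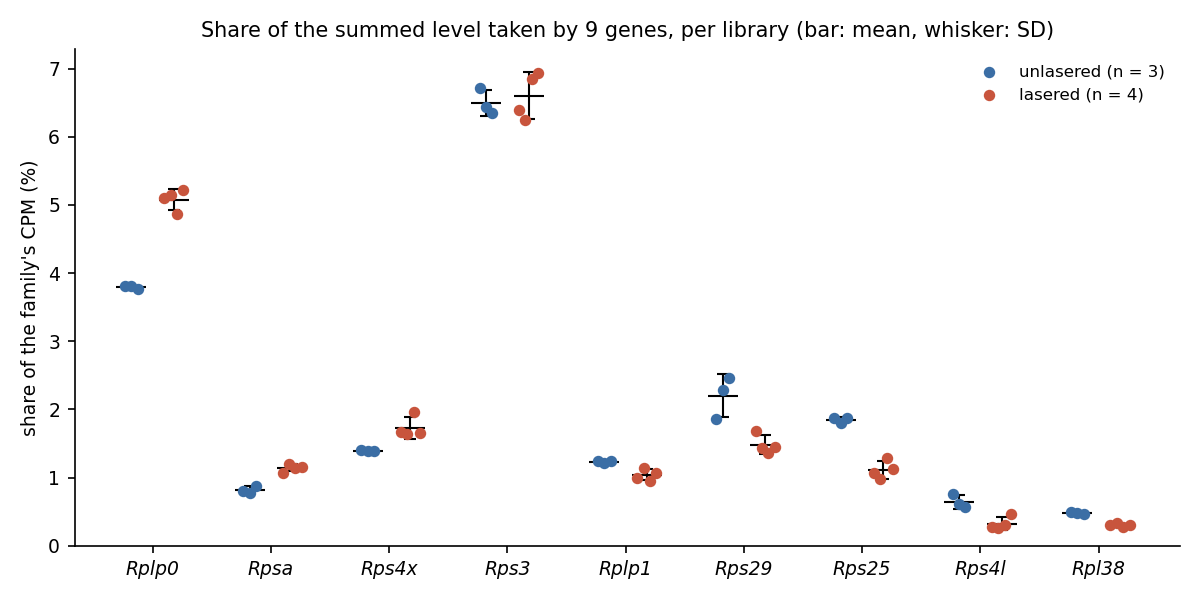
Share of the summed level of the 81 genes taken by 9 of them (vertical axis, percent, from 0) in each library, with the mean and SD of each group. Rplp0, Rpsa and Rps4x take more of the sum in every lasered library, Rplp1, Rps29, Rps25, Rps4l and Rpl38 less, and Rps3 overlaps.

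To compare levels between genes, CPM were divided by the kilobases of exon (CPM per kb). Among the highest of the tested members were Rps29 (210 CPM per kb without and 242 with laser) and Rpl37a (151 and 208). The lowest were Rpl39l (1.65 and 2.20), Rps15a (3.55 and 7.20) and Rpl12 (6.39 and 10.1). The order was not that of CPM, where Rps3, Rps9 and Rpl4 led. Over the 79 genes, which share the same libraries, genes with more named pseudogenes were listed at a lower level per kb (Spearman's rho -0.51, Pearson's r -0.38). The difference after laser was larger in genes of higher mean CPM (rho 0.41, r 0.35) and in longer genes (rho 0.28, r 0.22). Its rho with the share of 50-base words found in other genes was 0.02 (r 0.04). These are correlations across genes, which are not independent replicates. The mean CPM held the lasered libraries that also set the difference, and adding 1 CPM before the log shrinks differences of low genes. Part of the correlation with mean CPM can come from this.

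Ribosomal protein genes have many near-identical processed copies in the genome, and reads can be counted at a copy in place of its parent. The table lists 255 genes named as pseudogenes of a ribosomal protein gene. Their summed level was 2232, 2404 and 1844 CPM without and 3942, 4030, 3472 and 3399 CPM with laser, a ratio of 1.72 beside 1.69 for the 81 genes. Of the 179 tested, 69 were higher and 0 lower with limma, beside 3.86% higher and 3.07% lower among all genes tested. Their median difference was 0.62. At an unadjusted p under 0.05, 136 were higher and 0 lower, beside 11.0% and 11.6% of all genes. With edgeR 67 were higher (3.78% of all genes) and with DESeq2 92 (6.73%), both with 0 lower. In 27 of the 50 parents whose pseudogenes summed to at least 1 CPM without laser, more reads were listed for the pseudogenes together than for the parent, without regard to length. In 49 of these 50 the pseudogene sum was higher with laser by its mean, and in 44 with no overlap. Of all single genes tested, 10.4% were higher with no overlap. The median ratio was 1.70 for the pseudogenes and 1.67 for their parents. The pseudogenes of Rpsa had a ratio of 2.46 (parent 2.38), those of Rps12, which together held 7.29 times the CPM of their parent without laser (not divided by length), 1.68 (parent 1.67), and those of Rpl38 0.991 (parent 1.06). Parents and copies that share sequence cannot be told apart in such counts, so the level of a single parent is uncertain. Members with under 25% of their words in other genes were called higher in 12 of 19 cases, and those with over 75% in 7 of 11. These counts and the next stand beside 3.86% of all genes tested. The 18 members with jointly listed reads, such as Rplp2 with Snora52, were called in 12 cases, and the other 61 in 31.

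Within a group, most members were lowest or highest in the same libraries. Unlasered library 3 was the lowest of its group in 76 of 79 genes, and unlasered library 2 the highest in 57. Among the lasered libraries, library 1 or 2 was the highest in 31 and 41 genes, and library 3 or 4 the lowest in 38 and 37. Unlasered library 2 also held the highest rod and cone sums, unlasered library 1 the highest Mueller glia sum, and lasered libraries 1 and 2 the highest monocyte sums, led by Ccr2 at 81.5 and 128 CPM beside 19.7 and 7.57 CPM in lasered libraries 3 and 4. The part of these cells in the levels of ribosomal protein genes was not tested.

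The start of the messages was read from RefSeq (GRCm38.p6), since the 5′ TOP class is defined there. Promoter entries were found for 59 of the 81 genes and not for 22, among them Rpl17, Rpl21, Rpl23a, Rpl29, Rpl3, Rpl30, Rpl32, Rpl36, Rpl6l, Rpl7, Rpl8, Rplp1, Rps14, Rps20, Rps27a, Rps29 and Rps4l. Windows of 30 bases, 15 before the annotated start and 15 from it on, are given 5′ to 3′ with the longest run of C or T in capitals. The first 6 genes passed the test and the last 3 did not. Rpl19 has 2 annotated starts, of which the first is the start of the gene in GENCODE and the second lies inside the gene. The windows of Rpsa, Rps2, Rpl39, Rps25 and Rpl38 also lie wholly inside the GENCODE gene. That of Rps2 begins at 24720048, where the gene starts at 24718116.
Rpsa (chr9:120127751-120127780, plus strand): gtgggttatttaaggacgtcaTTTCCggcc
Rplp0 (chr5:115559452-115559481, plus strand): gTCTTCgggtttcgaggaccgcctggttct
Rps4x (chrX:102189377-102189406, minus strand): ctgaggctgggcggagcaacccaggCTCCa
Rps2 (chr17:24720048-24720077, plus strand): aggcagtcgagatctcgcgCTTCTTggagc
Rpl19, first entry (chr11:98026695-98026724, plus strand): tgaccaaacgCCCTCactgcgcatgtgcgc
Rpl19, second entry (chr11:98026909-98026938, plus strand): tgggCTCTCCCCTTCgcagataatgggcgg
Rpl39 (chrX:37085208-37085237, minus strand): cctaagctccgcctctagcgaCTTCTTCTa
Rps25 (chr9:44407699-44407728, plus strand): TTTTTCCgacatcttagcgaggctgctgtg
Rps27 (chr3:90213634-90213663, minus strand): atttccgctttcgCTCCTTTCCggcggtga
Rpl38 (chr11:114668565-114668594, plus strand): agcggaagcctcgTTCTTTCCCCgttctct

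Where a gene has several entries, a match in any of them was counted. A run of at least 8 pyrimidines lay in the window of 25 of the 59 genes (42.4%), and of 13.9% of all 27025 genes with an entry. A C at the annotated start followed by 4 more pyrimidines was found in 13 of 59 (22.0%) and in 3.01% of all genes. Rpl38, which did not differ in the test, held a run of 10, and Rps4x, among the largest rises, one of 4. Among called members with an entry 11 of 29 held a run of at least 8, and among tested members without a call 14 of 28. The letters TTCCGG, searched on both strands of the 300-base promoter and the core of sites bound by ETS factors, were found in 33 of 59 members (55.9%) and in 16.7% of all genes; they can overlap a pyrimidine run, as in Rpsa and Rps27. The annotated start need not be the one used in these cells, and a match is a description of the letters only.

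Genes that work with the ribosomal proteins were read as lists. Of the 6 tested ribosomal proteins outside the rule, 2 were higher: Rack1, a 40S scaffold for signalling proteins, at 88.2 to 106 CPM without and 188 to 249 CPM with laser (1.11, adjusted p = 0.00605, limma), and Fau, made as a fusion with a ubiquitin-like protein, at 50.0 to 58.4 and 86.8 to 100 CPM (0.75, adjusted p = 0.0140). Of the 8 elongation factors 4 were higher. They were Eef1a1, which brings aminoacyl-tRNA to the ribosome, at 534, 550 and 538 CPM without and 1378, 1346, 1247 and 1208 CPM with laser (1.26, SE 0.10, adjusted p = 0.00150), the translocase Eef2 (1.11, adjusted p = 0.00888), and Eef1b2 and Eef1g (0.70 and 0.67), which recharge Eef1a1. Of 37 initiation factors 4 passed as higher (10.8%, beside 3.86% of all genes tested). They were Pabpc1 (1.07), Eif3f (1.05), Eif3h (0.72) and Eif3i (0.64), and the list median was 0.02. Of 17 tested messages of the 5′ TOP class outside the family, 11 were higher with a median of 0.68. Most of the 11 were already counted in the lists before. Only Tpt1 (0.66, adjusted p = 0.0364, limma) and Npm1 (0.68) were not, and Npm1 is counted again below. Hnrnpa1, Nap1l1, Naca and Btf3, also outside the lists before, did not pass. With each library left out in turn, Eef1a1, Eef2, Rack1, Pabpc1 and Eif3f kept their call in all fits. Fau lost it without lasered library 2 (adjusted p = 0.0557) and Eif3i without lasered library 1 or 2 (0.0706 and 0.0698), while Eef1b2, Eef1g and Eif3h lost it in 4 to 6 of 7 fits, with adjusted p up to 0.117. The call of Tpt1 was also lost in most of these fits. With no overlap between groups and higher were 2, 4, 7 and 13 genes of these lists, in the order given, beside 10.4% of all genes tested.

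The machinery that makes ribosomes did not show this pattern, nor did genes of mTORC1 and TOP control or mitochondrial ribosomal proteins. Of 59 ribosome biogenesis factors 1 was higher, the chaperone Npm1 (0.68, adjusted p = 0.0400; it lost the call without any library but unlasered library 1, with adjusted p between 0.0523 and 0.111), and 0 lower with limma, with a median of -0.18 and 15 differences above 0; at an unadjusted p 2 were higher and 10 lower, and 1 and 3 were lower by edgeR and DESeq2. Of 21 genes of RNA polymerase I and rDNA transcription 0 passed with limma (unadjusted 2 higher and 4 lower, edgeR 0, DESeq2 1 lower; median -0.11). Of 18 genes of mTORC1 and TOP control 0 passed (unadjusted 0 higher and 1 lower; edgeR and DESeq2 0; median 0.06). Of 75 mitochondrial ribosomal protein genes, which build the separate ribosome of that organelle, 0 passed with limma (unadjusted 1 higher and 6 lower, edgeR 0, DESeq2 1 lower), with a median of -0.07. Lower without overlap were 9, 4, 1 and 7 genes of these lists, in the order given, beside 10.7% of all genes tested. Higher without overlap were 1, 2, 0 and 0. The differences between the lists were not tested.

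**Figure D5:**
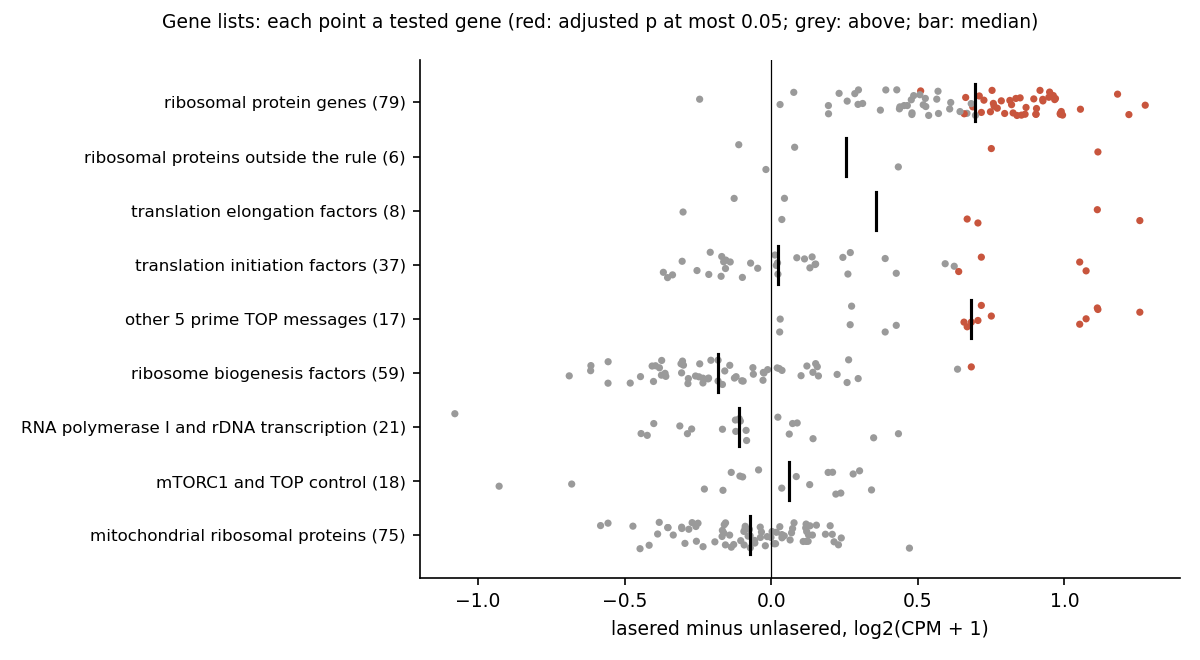
Difference between lasered and unlasered libraries in log2(CPM + 1) (horizontal axis) of each tested gene, by list; black bars are medians, red points have an adjusted p of at most 0.05. The 79 ribosomal protein genes (median 0.70) and the other 5′ TOP messages (0.68) lie mostly right of 0, whereas the biogenesis factors (-0.18) and mitochondrial ribosomal proteins (-0.07) lie around or left of it.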

How the data were processed

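The authors sorted rMG, amplified cDNA with a SMARTer low-input kit and Nextera XT, which does not mark strand, removed adapters and duplicates, mapped reads with bowtie2 and counted them with HTSeq (annotation version 90; build GRCm38 per the submitters' processing notes). The deposited columns carry the heading TPM and hold CPM: the sum is the same in each column, without regard to gene length, and 100% of values were whole multiples of the value of 1 read (tolerance 0.05 steps). Duplicate removal can lower counts of abundant short genes, and mapping that does not split reads over introns loses junction reads.

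Log2(CPM + 1) was fitted for genes that reached 1 CPM in 3 or more libraries with limma 3.58.1 (trend, robust; R 4.3.3, statmod 1.5.0), two-sided, with Benjamini-Hochberg adjustment over all genes tested, and a threshold of 0.05. edgeR 4.0.16 and DESeq2 1.42.0 were run on the recovered reads as alternatives, beside a pseudocount of 0.1, other filters and scalings, totals without the members or rod genes, the replicate block, pseudogene reads added, thinning, and each library left out. The test was also run on simulated counts with known changes. These were drawn for each gene apart, unlike members that are low or high in the same libraries. The outcome is not used here. Of 4492 rows with jointly listed reads 18 are members; Rpl13 is listed only jointly with another gene and is not among them. Coordinates, exon lengths and transcript words are from GENCODE M21. The members and lists were chosen with earlier results of these data known. Named are the 8 largest called rises, the 5 lowest differences, the 3 highest and lowest per kb, untested members, and members by role; Rpl4, Rpl6, Rpl6l, Rpl36a, Rps9, Rps12 and Rps13 were added after their values were seen. Some members are not reported here by name; they stay in the counts, sums and medians. Python 3.11.15 with pandas 2.3.3, numpy 2.4.6 and matplotlib 3.10.9 was used.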

Additional observations from a re-analysis of the deposited data

Results flagged for a closer look

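A level was marked where 1 of the 4 lasered libraries lay far from the other 3 by Dixon's ratio, which chance alone does in about 1 of 20 groups; this held for 3 of 36 levels examined. Rps4x was at 97.1 CPM in lasered library 4, below 112 to 115 CPM in the other lasered libraries. Rps4l was at 27.2 CPM in lasered library 4, above 17.5 to 18.4 CPM in the others. Rpl39l was at 3.38 CPM in lasered library 3, above 1.11 to 1.43 CPM in the others.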

How the results depend on the processing

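The median difference of the family (0.70) kept its direction in every alternative and moved by less than the spread between libraries, from 0.60 to 0.78. The log2 ratio of the summed level (0.76), tried only with median-of-ratios scaling (0.76) and with a library left out (0.65 to 0.84), did so too, and 75 members had a difference above 0 in all 20 settings. The 43 calls became 24 with no filter on low values and 17 to 38 with a library left out; 17 members were called in every setting but the replicate block. Over all genes tested, libraries of the 2 groups with the same number did not deviate together (correlations -0.18, -0.13 and -0.02). Over the members the correlations were -0.31, 0.36 and 0.03. Numbers were taken to name libraries only. With the replicate block 0 members were called, as were 0 genes higher in each list, and 3 genes in all. The sign turned with a library left out for Rpl38 (range -0.049 to 0.16), Rps25 (-0.072 to 0.092) and Rpl39l (-0.036 to 0.31). With no filter 2 elongation factors, 2 initiation factors, 6 other 5′ TOP messages, 0 biogenesis factors and 26 pseudogenes were higher. With a library left out, 1 to 2 ribosomal proteins outside the rule, 2 to 3 elongation factors, 2 to 5 initiation factors, 5 to 8 other 5′ TOP messages, 0 to 1 biogenesis factors and 18 to 55 pseudogenes were higher, and 0 to 2 biogenesis factors, 0 to 1 polymerase I genes and 0 to 2 mitochondrial ribosomal proteins lower. Lower biogenesis factors were 1 with edgeR and 3 with DESeq2, lower polymerase I genes 1 with DESeq2, and lower mitochondrial ribosomal proteins 1 each with DESeq2, totals without rod genes and thinning to the smallest library, which was added once the depths were known. The cause of these changes was not tested, except that the filter alters how many genes are tested. With 3 against 4 libraries and non-overlapping depths, differences can be missed, also some above the spread between libraries. The smallest called difference in the family was 0.51 (Rpl4), and 0.70 for Rps13 was not called. No detection limit was computed.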
